A study of Homo sapiens with 8 samples.

Results

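The cytosolic ribosomal protein genes were taken as the protein-coding genes on chromosomes 1 to 22 whose symbol is RPL or RPS followed by a number and an optional final A, together with RPLP0, RPLP1, RPLP2 and RPSA. There were 73 such genes of 19222 autosomal protein-coding genes in the GENCODE annotation of GRCh37, 43 of the large ribosomal subunit and 30 of the small subunit. Chromatin came from PC9, an established human lung adenocarcinoma cell line, and ChIP-seq was performed for trimethylation of histone H3 at lysine 27 (H3K27me3) and at lysine 4 (H3K4me3). Cells were treated for 5 days with the vehicle DMSO or with 1 µM GSK126, an inhibitor of EZH2, the methyltransferase that places H3K27me3. Each mark and treatment had 2 libraries, and every library also held chromatin of D. melanogaster with an antibody to the fly histone H2Av, added as a spike-in. All groups were grown from this single line, so the libraries differ in treatment and culture but not in genotype.

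Ribosomal proteins combine with ribosomal RNA into the ribosome, which translates mRNA in every cell, and their genes are among the most strongly and constantly transcribed. H3K4me3 is found at the starts of active genes and H3K27me3 over genes silenced by the Polycomb system, so these promoters serve as a reference for starts that stay active. Most mRNAs of this family begin with a C and a run of pyrimidines, the terminal oligopyrimidine (TOP) motif, through which their translation responds to growth signals.

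The deposited values were islands, that is stretches enriched for tags, each with a score, in 14 lists. GSK126 libraries had a list after standard normalization, with equal human tags in the 2 treatments of a replicate, and a list after spike-in normalization, with human tags scaled by the D. melanogaster tags. H3K27me3 DMSO libraries also had both lists, while each H3K4me3 DMSO library had a single list that served both. For H3K4me3 depth differed far more between replicates than between treatments. The island scores correspond to 1.77 tags per 200 bp of genome in H3K4me3 DMSO replicate 1 and 0.302 in replicate 2, a ratio of 5.86, whereas GSK126 was at 0.836 and 0.869 of DMSO after spike-in normalization. For H3K27me3 the replicates were closer in depth, at 1.65 and 2.33 tags per 200 bp with DMSO in the spike-in lists, where GSK126 held 0.231 and 0.196 of the DMSO tags. GSK126 was therefore compared with DMSO within a replicate, unless stated otherwise. Of the epithelial markers EPCAM, CDH1, KRT8, KRT18 and KRT19, all 5 had an H3K4me3 island at the start in replicate 1 and 4 in replicate 2, where EPCAM had none, and the blood cell genes PTPRC, CD3E and CD79A had none in any list, while CD14 had islands of at most 1.6 kb in 5 of the 6 lists.

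RefSeq promoter windows, from 250 bases before to 50 after the RefSeq start on GRCh38.p14, were found for 58 of the 73 genes. Windows of the other 15 genes were not used here. The stretch from 50 bases before to 30 bases from the start is printed for 16 genes, on the gene's own strand. These lie under the H3K4me3 islands described below and carry a pyrimidine run near the start. Capitals mark this TOP run, which need not begin at the RefSeq start. At RPL11 it ends before the start, and at RPL38 and RPS27A it begins 9 and 10 bases after it.
RPL35A, chr3:197950140-197950219, plus strand: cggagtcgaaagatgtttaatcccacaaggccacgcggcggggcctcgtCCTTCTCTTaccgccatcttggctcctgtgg
RPL3, chr22:39319594-39319673, minus strand: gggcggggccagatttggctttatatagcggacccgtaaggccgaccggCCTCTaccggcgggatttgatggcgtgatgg
RPL29, chr3:51995866-51995945, minus strand: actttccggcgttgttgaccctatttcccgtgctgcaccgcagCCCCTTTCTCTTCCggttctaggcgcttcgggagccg
RPS27, chr1:153990712-153990791, plus strand: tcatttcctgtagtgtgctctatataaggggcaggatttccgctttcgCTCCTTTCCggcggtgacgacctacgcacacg
RPSA, chr3:39406670-39406749, plus strand: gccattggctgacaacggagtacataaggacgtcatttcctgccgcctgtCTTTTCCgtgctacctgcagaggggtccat
RPLP0, chr12:120201082-120201161, minus strand: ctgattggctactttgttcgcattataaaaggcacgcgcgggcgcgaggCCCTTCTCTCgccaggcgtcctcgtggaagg
RPLP1, chr15:69452768-69452847, plus strand: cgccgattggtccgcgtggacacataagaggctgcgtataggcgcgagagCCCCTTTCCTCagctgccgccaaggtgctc
RPLP2, chr11:809917-809996, plus strand: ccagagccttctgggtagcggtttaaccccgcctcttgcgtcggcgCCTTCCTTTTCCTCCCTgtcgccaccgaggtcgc
RPL11, chr1:23691729-23691808, plus strand: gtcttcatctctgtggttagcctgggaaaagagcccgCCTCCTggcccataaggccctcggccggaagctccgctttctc
RPL13A, chr19:49487558-49487637, plus strand: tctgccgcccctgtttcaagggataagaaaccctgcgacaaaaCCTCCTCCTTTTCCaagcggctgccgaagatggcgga
RPL38, chr17:74203628-74203707, plus strand: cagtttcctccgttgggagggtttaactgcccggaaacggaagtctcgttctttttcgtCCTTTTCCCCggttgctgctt
RPS6, chr9:19380207-19380286, minus strand: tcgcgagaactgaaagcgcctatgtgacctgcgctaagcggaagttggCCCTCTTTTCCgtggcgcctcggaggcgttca
RPS14, chr5:150449710-150449789, minus strand: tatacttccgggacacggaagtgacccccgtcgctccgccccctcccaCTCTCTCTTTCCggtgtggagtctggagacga
RPS18, chr6:33272025-33272104, plus strand: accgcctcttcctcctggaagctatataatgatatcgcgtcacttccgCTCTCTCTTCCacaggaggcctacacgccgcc
RPS19, chr19:41860205-41860284, plus strand: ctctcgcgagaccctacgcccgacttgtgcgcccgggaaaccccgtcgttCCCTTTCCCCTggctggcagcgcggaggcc
RPS27A, chr2:55231853-55231932, plus strand: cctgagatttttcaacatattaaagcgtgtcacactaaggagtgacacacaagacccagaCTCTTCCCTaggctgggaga

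A TOP start, counted as a C and at least 4 further pyrimidines on the sense strand that begin within 15 bases of the RefSeq start, was present in 54 of the 58 windows (93.1%), compared to 43.3% of 14591 autosomal protein-coding promoters. A run counted this way need not begin at the first base of the mRNA. At RPL11, RPL17 and RPL19 it ended before the RefSeq start. RPL6, RPL13, RPL15 and RPS29 had none in that range. The window of RPL6 is that of a RefSeq start without an H3K4me3 island in any list, described below. Runs of 8 or more pyrimidines were found in 45 windows (77.6%), compared to 12.8% of all promoters, and the median run was 11 bases where there was any, compared to 6. RPLP2, which encodes a protein of the acidic stalk that recruits translation factors, had the longest run of the printed set at 17 bases, and RPL3, a core protein of the large subunit, the shortest at 5.

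Short motifs were searched on both strands of the 300-base windows. The ETS core CCGGAAG was present in 20 of 58 windows (34.5%, compared to 14.6% of all promoters) and the palindrome CTCGCGAG in 6 (10.3%, compared to 1.60%). RPS19 carries the palindrome within the stretch printed, and RPS6 carries it in the longer window, from where the printed stretch cuts off its first base. AAGATGG, the core of the YY1 motif, was in 8 windows (13.8%, compared to 6.35%). The GC box GGGCGG was about as common as elsewhere (53.4%, compared to 59.7%), as were TATAAA (8.62%, compared to 9.68%) and the E-box CACGTG (5.17%, compared to 8.77%). Median GC content was 59% compared to 63%, and the median ratio of observed to expected CpG was 0.914 compared to 0.772. These are matches of letters and were not tested as binding sites.

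H3K4me3 marked nearly every one of these starts in every library. A start island was taken as the widest H3K4me3 island that reaches within 1 kb of the annotated 5′ end of the gene. It was present in all 6 H3K4me3 lists for 69 of 73 genes (94.5%), compared to 59.1% of all autosomal protein-coding genes. By list, 70 of 73 genes had a start island in DMSO replicate 1 and in its standard GSK126 list, and 69 in each of the other 4 lists. In those 4 lists the genes without an island included RPL4, RPL22 and RPL36.

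The absence at these 3 genes depended on which start was used. The annotated 5′ ends of RPL4, RPL36 and RPL22 lie 19.7, 15.3 and 9.79 kb upstream of their RefSeq starts, which were placed on GRCh37 by an exact match of the promoter window. RPL4, an exit tunnel protein of the large subunit, had islands of 4.2 and 3.2 kb at its RefSeq start in DMSO replicates 1 and 2, and of 4.6 and 3.2 kb in the standard GSK126 lists. RPL36, also of the large subunit, had islands of 5.8 and 5.4 kb with DMSO and 4.6 and 4.8 kb with GSK126. RPL22, whose protein binds RNA and is not needed for the catalytic steps of translation, had islands of 3.6 and 2.6 kb with DMSO and 3.4 and 3.0 kb with GSK126. All 3 genes were therefore marked in every list at the RefSeq start. The island at the annotated 5′ end of RPL22 in DMSO replicate 1, 4.0 kb wide, also reached within 1 kb of the start of its neighbour RNF207.

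RPL6, a large subunit gene chosen after its values were seen, had no H3K4me3 island at its RefSeq start, 7.40 kb downstream of the annotated 5′ end, in any of the 6 lists. The island at its annotated 5′ end, 4.6 and 3.4 kb with DMSO, lies at the start of PTPN11 as well, and a separate island of 3.8 and 3.0 kb begins 8.64 and 8.84 kb downstream and covers 5 of its 7 annotated coding transcript starts. Of the 56 genes whose RefSeq start could be placed, 50 had it within 500 bp of the annotated 5′ end.

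Start islands of ribosomal protein genes were wide. Their median was 6.0 kb in DMSO replicate 1 (range 2.6 to 16 kb, 70 genes) and 3.6 kb in DMSO replicate 2 (range 1.4 to 9.6 kb, 69 genes), compared to 4.4 and 2.4 kb for all autosomal protein-coding genes with an island. The median of this family was wider than 76.7% and 79.1% of all start islands in these lists. In DMSO replicate 1, 60 of 70 genes (85.7%) were above the median of all genes, and in replicate 2 53 of 69 (76.8%). Islands were wider in the deeper replicate, and widths were compared within a list or a replicate.

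**Figure D1:**
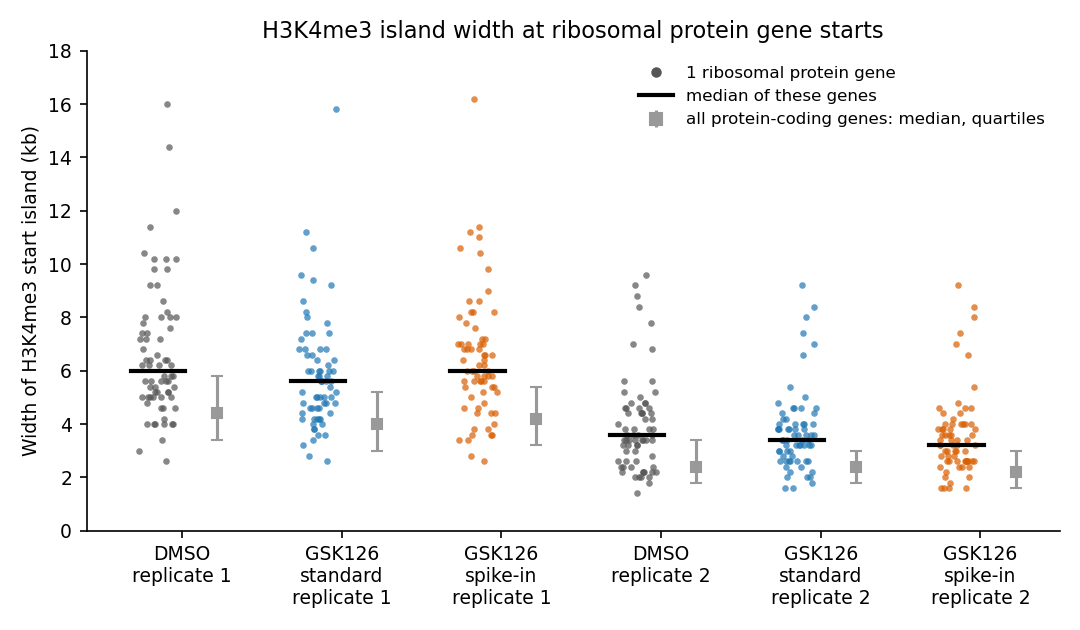
Width of the H3K4me3 start island in kb (vertical axis) for each ribosomal protein gene (points) in each of the 6 lists, with the median of these genes (black bar) and the median and quartiles of all autosomal protein-coding genes with a start island (grey square and bars). The median of the family lies above the upper quartile of all genes in all 6 lists, and replicate 1 lies above replicate 2.

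The widest start islands, by the mean of the 2 DMSO libraries, were at RPL23A, RPL8, RPL35A and RPL3, all of the large subunit. RPL23A, a protein beside the exit tunnel to which chaperones dock, had islands of 16 and 8.8 kb with DMSO, 15.8 and 8.0 kb in the standard GSK126 lists and 16.2 and 8.0 kb in the spike-in lists. In DMSO replicate 1 this island also reached within 1 kb of the starts of NEK8, RAB34 and TLCD1. RPL8, a protein near the peptidyl transferase centre, had 11.4 and 9.6 kb with DMSO and 11.2 and 8.4 kb with GSK126 in both normalizations. Its island in DMSO replicate 1 also reached within 1 kb of the start of ZNF34. RPL3, which reaches toward the peptidyl transferase centre, had 10.2 and 8.4 kb with DMSO and 10.6 and 9.2 kb with GSK126 in both normalizations. Its island in DMSO replicate 1 reached no other protein-coding gene start.

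The narrowest were at RPS20, RPL29, RPS27 and RPSA. RPS20, a protein of the small subunit head, had 2.6 and 2.2 kb with DMSO, 2.6 and 2.0 kb in the standard GSK126 lists and 2.6 and 1.6 kb in the spike-in lists. RPL29 had 3.0 and 2.0 kb with DMSO and 3.6 and 2.0 kb with GSK126 in both normalizations. RPS27, a zinc finger protein of the small subunit, had 3.4 and 2.0 kb with DMSO and 2.8 and 2.0 kb with GSK126 in both normalizations. Of the sequence within 1 kb of the RPS27 start, 21.6% lies in exact copies of at least 50 bases elsewhere in GRCh37, to which tags of 50 nt cannot be assigned uniquely. This share was 0% at RPS20, 19.0% at RPL29 and 1.45% at RPSA. At RPL23A and RPLP0, which had wider islands, it was 15.0% and 21.4%. The part of such copies in island width was not tested. RPSA, whose values follow with its role, had the narrowest island of the family in DMSO replicate 2. RPL29 and RPS27 exchanged places in replicate 1, where RPS27 was the wider with DMSO and RPL29 the wider with GSK126. In replicate 2 they were equal in every list, at a step of 200 bp, the size of a single window.

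The islands lay mainly inside the genes. In DMSO replicate 1 they reached a median of 1.87 kb upstream and 4.19 kb downstream of the start, compared to 1.64 and 2.63 kb for all genes, and in replicate 2 1.01 and 2.54 kb, compared to 0.859 and 1.52 kb. The downstream reach was the longer of the 2 at 66 of 70 genes (94.3%) in DMSO replicate 1 and at 68 of 69 (98.6%) in replicate 2, compared to 76.1% and 76.5% of all genes. At 2 kb downstream of the start 94.5% of the ribosomal protein genes were under an island in DMSO replicate 1 and 71.2% in replicate 2, compared to 48.0% and 19.2% of all genes.

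**Figure D2:**
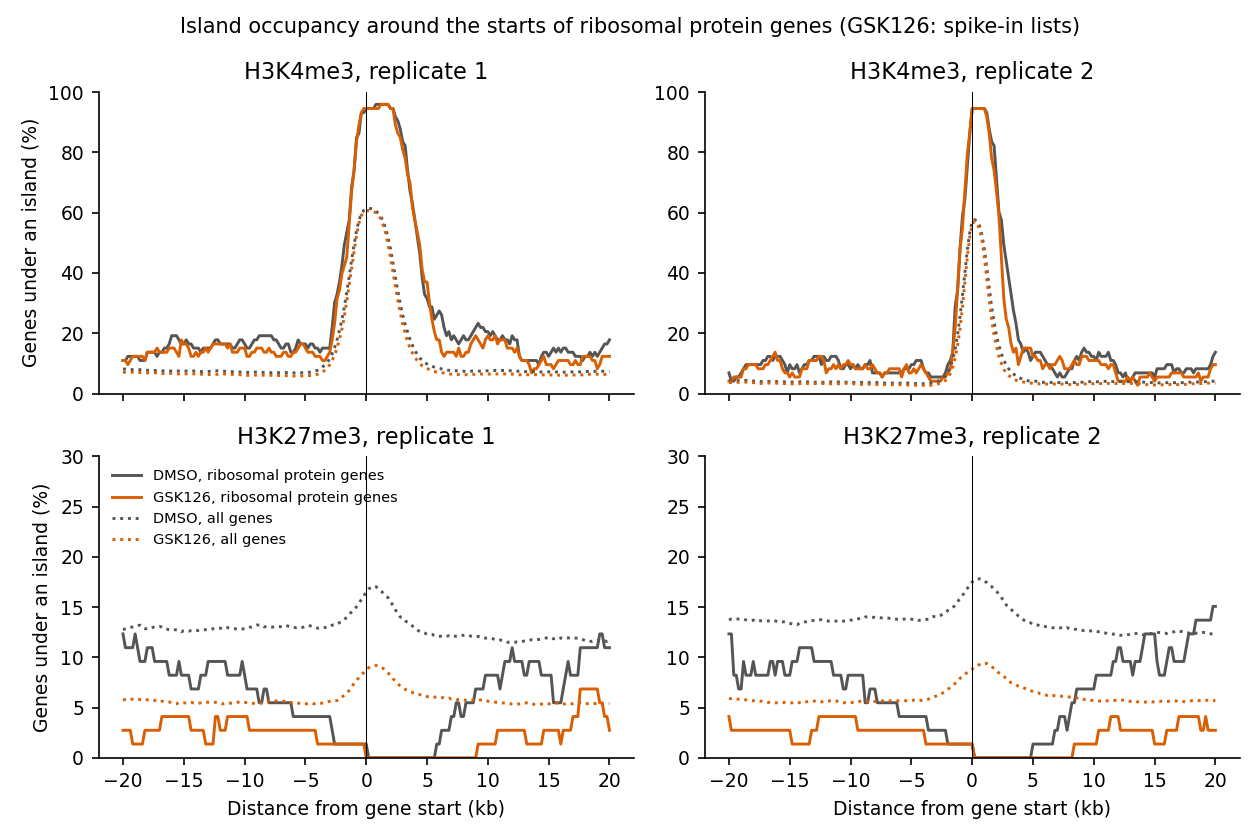
Share of genes under an island (vertical axis, percent) by distance from the annotated gene start (horizontal axis, kb, transcription to the right) for H3K4me3 (top) and H3K27me3 (bottom, its own scale), in replicates 1 and 2, for ribosomal protein genes (solid) and all autosomal protein-coding genes (dotted) with DMSO (grey) and GSK126 in the spike-in lists (orange). H3K4me3 reaches 94.5% of the ribosomal protein genes at the start in both treatments, and H3K27me3 covers between 0% and 1.37% of them there, compared to between 8.71% and 17.5% of all genes.

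Ribosomal protein genes are short, with a median length of 5.33 kb compared to 27.6 kb for all genes, and the islands covered much of them. The median share of the gene body and 2 kb upstream under H3K4me3 was 71.8% in DMSO replicate 1 and 43.0% in replicate 2, compared to 7.05% and 3.29% for all genes. These medians include genes without an island, and the part of gene length in the difference was not tested. Short genes had wider islands in the genome as a whole. Genes of 5 kb or less had a median of 5.4 and 3.2 kb in the 2 DMSO libraries, and the 33 ribosomal protein genes of this size, of which 32 had an island, had 7.2 and 4.4 kb. Above 5 kb the medians were 4.4 and 2.4 kb for all genes and 5.6 and 3.2 kb for this family. The family was thus wider than all genes within both length classes and in both libraries, as a description of medians.

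Islands shared with a neighbour were wider, in part by definition, since a wider island reaches more gene starts. In DMSO replicate 1 the start island of 28 genes also reached within 1 kb of the start of another protein-coding gene, such as SUPT5H at RPS16, MED22 at RPL7A and LIAS at RPL9. These had medians of 7.8 and 4.6 kb in the 2 libraries, and the 42 genes with an unshared island 5.4 and 3.2 kb. For all genes the values were 5.2 and 2.8 kb with a shared island and 4.2 and 2.4 kb without. Hosts of small nucleolar RNAs, which guide the modification of ribosomal RNA and are processed from introns, numbered 27, and their medians of 6.2 and 4.3 kb were above the 5.7 and 3.4 kb of the other 46 genes. Large subunit genes had 6.4 and 3.5 kb and small subunit genes 5.6 and 3.6 kb, so the subunits differed in opposite directions in the 2 replicates. The 45 genes with a TOP run of 8 or more had medians of 6.2 and 3.6 kb, and the 13 with a shorter run or none had 5.1 and 2.9 kb. Genes without a promoter window were left out of both groups. The run was read at the RefSeq start and the width at the annotated 5′ end, which lie far apart at RPL4, RPL6, RPL22 and RPL36.

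The order of the genes by width was similar between libraries. Over the 69 genes with an island in all lists, Spearman's rho was 0.68 between the 2 DMSO libraries (Pearson's r = 0.67), 0.82 between DMSO and GSK126 in replicate 1 and 0.88 in replicate 2. These are correlations across genes, which share gene length and neighbours and are not independent replicates.

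The comparison of treatments asked whether these active promoters, nearly all of which lacked an H3K27me3 island, looked the same with GSK126. With equal tags, the start islands were slightly narrower with GSK126, by about as much as over all genes. The median log2 ratio of width, GSK126 to DMSO, was -0.14 in replicate 1 (70 genes) and -0.06 in replicate 2 (69 genes), with a mean of -0.10 ± 0.06 (SD, n = 2), or 0.932-fold. Over all genes with an island the values were -0.14 and 0, with a mean of -0.07 ± 0.10 (SD, n = 2). The difference between the family and all genes was smaller than the spread between replicates. With 2 pairs of libraries the smallest two-sided p of an exact sign-flip test is 0.5, so no p-value is given for any comparison of treatments.

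By gene, 49 of 70 were narrower, 4 equal and 17 wider in replicate 1, and 36 of 69 were narrower, 11 equal and 22 wider in replicate 2. The shares narrower, 70% and 52.2%, were close to the 68.1% and 49.8% of all genes. In both replicates 28 of 69 genes (40.6%) were narrower by at least 200 bp, compared to 35.0% of all genes, and 7 (10.1%) were wider, compared to 7.14%. Both shares were near those of all genes. For no gene of the family were both GSK126 widths below, or both above, the 2 DMSO widths, and over all genes this was so for 1.57% and 0.246%. This count crosses the replicates, which differ in depth and width, so few genes could meet it and nothing is concluded from it. The gene by gene changes of the 2 replicates were nearly unrelated over 69 genes (Spearman's rho 0.18, Pearson's r = 0.06).

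**Figure D3:**
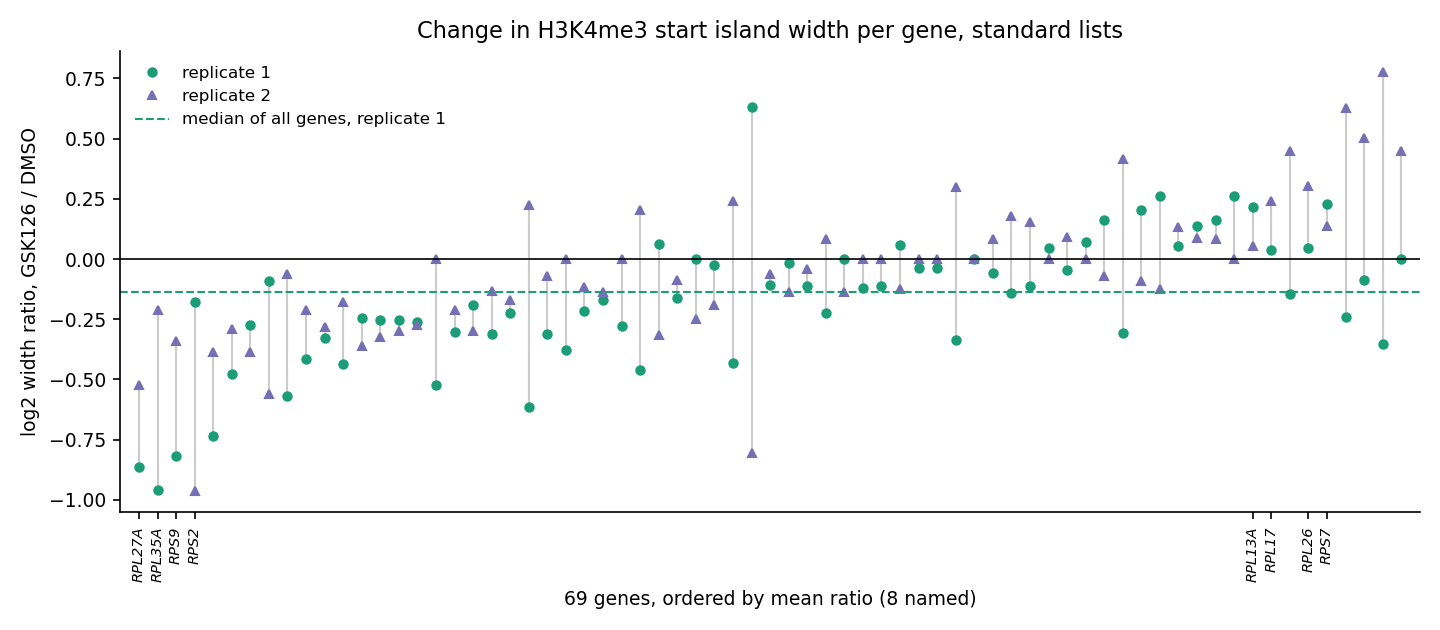
The log2 ratio of start island width, GSK126 to DMSO in the standard lists (vertical axis), for each of the 69 ribosomal protein genes with an island in both replicates, ordered by the mean (the 8 genes with the largest change in a common direction are named on the axis), with replicate 1 as circles, replicate 2 as triangles and the median of all genes in replicate 1 as a dashed line. The replicates often lie on opposite sides of 0, and the lowest values, near -0.96, belong to RPL35A in replicate 1 and RPS2 in replicate 2.

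Among genes narrower in both replicates, RPL27A, RPL35A, RPS9 and RPS2 had the largest mean decreases, at -0.69, -0.59, -0.58 and -0.57 on the log2 scale. RPL27A, a large subunit protein whose gene lies next to TRIM66, had islands of 10.2 and 4.6 kb with DMSO and 5.6 and 3.2 kb in the standard GSK126 lists. RPL35A, whose island in DMSO replicate 1 reached within 1 kb of the starts of IQCG and LMLN, had 14.4 and 4.4 kb with DMSO and 7.4 and 3.8 kb with GSK126. RPS2, which lines the mRNA entry of the small subunit, had 10.4 and 7.8 kb with DMSO and 9.2 and 4.0 kb with GSK126. In each of these 3 the replicate with the larger decrease was the one in which 2 GSK126 islands lay over the DMSO island. At RPL27A in replicate 1, 2 GSK126 islands still covered 94.1% of the DMSO island, at RPL35A in replicate 1 2 islands covered 76.4%, and at RPS2 in replicate 2 2 islands covered 79.5%. The island of RPS9, a protein that helps to keep decoding accurate, was instead shortened from both ends in replicate 1, from 12 to 6.8 kb, without a second piece, and was 3.8 and 3.0 kb in replicate 2.

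The largest increases seen in both replicates were small. RPS7, which is needed to process the RNA of the small subunit, had islands of 5.8 and 2.0 kb with DMSO and 6.8 and 2.2 kb with GSK126, a mean log2 ratio of 0.18. RPL26, which contacts the exit tunnel and has been tied to the translation of p53, had 6.4 and 3.4 kb with DMSO and 6.6 and 4.2 kb with GSK126, a mean of 0.17. RPL17 and RPL13A followed at 0.14 each. At all 4 genes the smaller of the 2 increases was 200 bp, a single window.

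The stalk proteins at the base of the factor-binding centre showed no common direction. RPLP0, the scaffold of the stalk, had islands of 9.8 and 3.4 kb with DMSO and 9.4 and 3.6 kb with GSK126. RPLP1 had 4.0 and 2.2 kb with DMSO and 4.0 and 3.0 kb with GSK126, and RPLP2 had 5.0 and 4.8 kb with DMSO and 6.0 and 4.4 kb with GSK126. RPLP0 and RPLP2 each moved in opposite directions in the replicates.

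RPL5 and RPL11, which form a particle with a small ribosomal RNA and can bind MDM2, were also inconsistent. RPL5 had islands of 4.0 and 2.8 kb with DMSO and 6.2 and 1.6 kb with GSK126, so that its log2 ratio was 0.63 in replicate 1 and -0.81 in replicate 2. RPL11 had 5.0 and 2.4 kb with DMSO and 5.2 and 2.2 kb with GSK126. RPSA, a small subunit protein also described as the precursor of a laminin receptor, had 4.6 and 1.4 kb with DMSO and 3.6 and 2.4 kb with GSK126. Each of these 3 was wider in 1 replicate and narrower in the other.

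Other small subunit genes with well known roles were followed in the same lists. RPS6, the target of the S6 kinases, had 4.8 and 3.2 kb with DMSO and 4.2 and 2.6 kb with GSK126, and RPS18, of the small subunit head, had 9.8 and 5.6 kb with DMSO and 7.8 and 4.6 kb with GSK126. RPS27A, which is made as a fusion with ubiquitin, had 7.2 and 4.6 kb with DMSO and 6.0 and 3.8 kb with GSK126. These 3 were narrower in both replicates. RPS14, whose loss underlies part of a myelodysplastic syndrome, had 5.2 and 2.4 kb with DMSO and 4.2 and 3.2 kb with GSK126, and RPS19, the gene most often mutated in Diamond-Blackfan anemia, had 6.6 and 4.0 kb with DMSO and 4.8 and 4.6 kb with GSK126. Both of these were narrower in replicate 1 and wider in replicate 2.

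In the spike-in lists, with fewer GSK126 tags than DMSO tags, the median log2 width ratio was 0 in replicate 1 and -0.09 in replicate 2, with a mean of -0.04 ± 0.06 (SD, n = 2, 69 genes in each). Over all genes it was -0.07 and -0.12, with a mean of -0.10 ± 0.04 (SD, n = 2). The 2 normalizations thus placed the family on opposite sides of all genes, and in both the difference in means was smaller than the SD of the family between replicates. In both replicates 23 of 69 genes (33.3%) were narrower, compared to 32.5% of all genes, and 10 (14.5%) were wider, compared to 8.75%.

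The score per 200 bp of the start island, in natural log units, measures how far tag density lies above background and is comparable between treatments only in the standard lists. In replicate 1 the family had a median of 142 in DMSO and 172 in GSK126 cells, and in replicate 2 of 51.6 and 47.8. The median log2 ratio was 0.26 in replicate 1 and 0.01 in replicate 2, with a mean of 0.13 ± 0.17 (SD, n = 2), compared to 0.23 and -0.01, with a mean of 0.11 ± 0.17 (SD, n = 2), over all genes. In both replicates 32 of 69 genes (46.4%) had a higher score with GSK126, compared to 39.6% of all genes, and 9 (13.0%) a lower score, compared to 11.5%. The family thus moved with the rest of the genome in each replicate, and its mean did not exceed the spread between replicates.

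RPL27A, RPL24 and RPS9 had the largest increases in score per 200 bp. At RPL27A it was 79.4 and 33.3 with DMSO and 151 and 46.4 with GSK126, and at RPL24, a protein on the surface that faces the small subunit, it was 150 and 58.8 with DMSO and 261 and 86.5 with GSK126. All 3 were also narrower in both replicates, so a score averaged over fewer, denser windows was compared. RPL30, RPS7 and RPL13A had the largest decreases. At RPL30, which also binds its own transcript, the score was 232 and 64.2 with DMSO and 215 and 47.8 with GSK126, and at RPL13A, which takes part in silencing of inflammatory mRNAs, 317 and 71.0 with DMSO and 282 and 60.3 with GSK126. These 3 were wider in both replicates. The score of the whole island, which does not divide by width, had a median log2 ratio of 0.10 in replicate 1 and -0.08 in replicate 2 over the family.

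Coverage by H3K4me3 islands of the gene body and 2 kb upstream differed little. The median difference, GSK126 minus DMSO in the standard lists, was -3.26 percentage points in replicate 1 and 0 in replicate 2, with a mean of -1.63 ± 2.31 (SD, n = 2). Over all genes it was -0.07 and 0 percentage points. The median coverage in DMSO replicate 1 was 7.05% over all genes and 71.8% in the family, so differences in points are not directly comparable. In the spike-in lists the family had 0 and -0.87 percentage points.

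H3K27me3 was almost absent. With DMSO in the spike-in lists, 2 of 73 genes (2.74%) had an H3K27me3 island over the body or 2 kb upstream in at least 1 library, compared to 32.5% of all autosomal protein-coding genes. With GSK126 the count was 2 of 73, compared to 19.4%, in the spike-in lists and 3 of 73 (4.11%), compared to 25.3%, in the standard lists. The 2 genes were RPL38 and RPS9 in each of the 8 lists, and the third was RPL8 in a single list. Genes with an active mark at the start were compared as well. Among the 11584 genes with an H3K4me3 start island in both DMSO libraries 19.6% had such an island with DMSO in the spike-in lists, compared to 2 of 69 in this family (2.90%). With GSK126 in these genes the shares were 9.80% in the spike-in lists and 13.9% in the standard lists, again compared to 2 and 3 of 69. RPL38 and RPS9 were thus counted with both treatments, while the share over all genes was lower with GSK126.

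**Figure D4:**
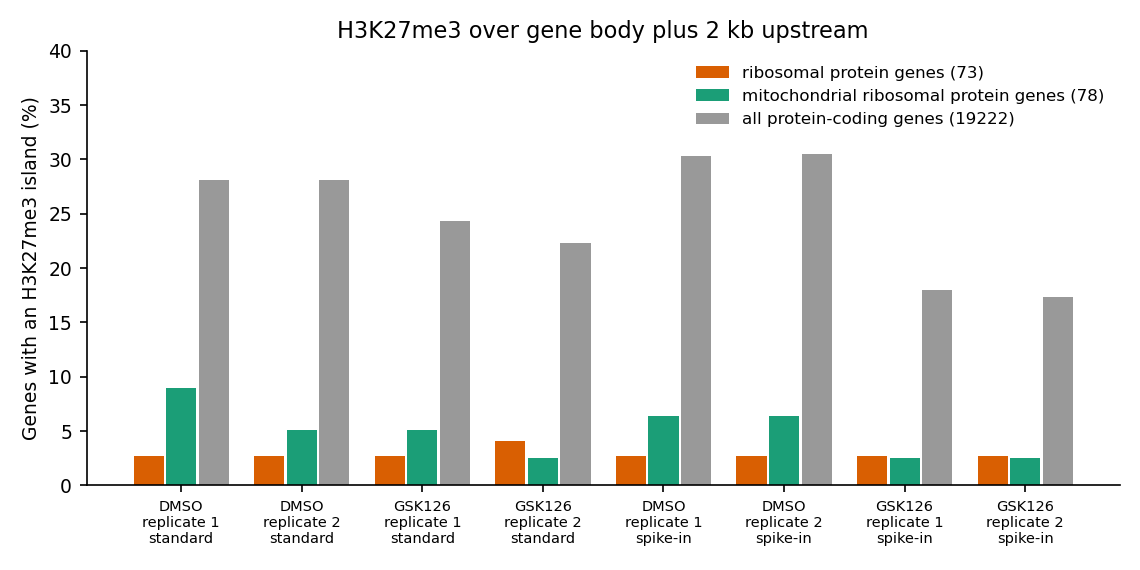
Share of genes (vertical axis, percent, from 0) with at least 1 base of an H3K27me3 island over the gene body or 2 kb upstream, in each of the 8 lists, for ribosomal protein genes (orange), mitochondrial ribosomal protein genes (green) and all autosomal protein-coding genes (grey). The ribosomal protein genes are at 2.74% in 7 lists and at 4.11% in 1, while all genes range from 17.3% to 30.5%.

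RPL38, a small protein of the large subunit that in mice is needed for the translation of certain Hox mRNAs, stood at the edge of an H3K27me3 domain. The gene lies on the plus strand at chr17:72199721-72206794 (GRCh37). The island upstream of it was 35.8 and 58.8 kb wide with DMSO and 60.4 and 29.8 kb with GSK126 in the standard lists, and 36.0 and 58.8 kb with DMSO and 12.4 and 28.8 kb with GSK126 in the spike-in lists. It overlapped no other protein-coding gene in any list. Its far edge thus differed widely between libraries, and in the spike-in lists the domain was narrower with GSK126 in both replicates.

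The near edge hardly moved. In 6 of the 8 lists the domain ended 79 bp inside the annotated start of RPL38, in the spike-in list of GSK126 replicate 1 it ended at -121 bp, before the start, and in the standard list of GSK126 replicate 1 it ended 279 bp inside. These are the positions of 3 neighbouring windows. The RefSeq start, whose sequence is printed above with a TOP run of 10 bases, lies 17 bp beyond the end found in 6 lists. H3K4me3 began on the same ground, with islands of 5.0 and 3.2 kb with DMSO that began at -1.12 and -0.32 kb from the annotated start, and of 4.2 and 2.6 kb in the standard GSK126 lists that began at -0.32 and -0.12 kb. Islands of the 2 marks thus overlapped at the promoter in each pair of lists, and the body of RPL38 carried no further H3K27me3.

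**Figure D5:**
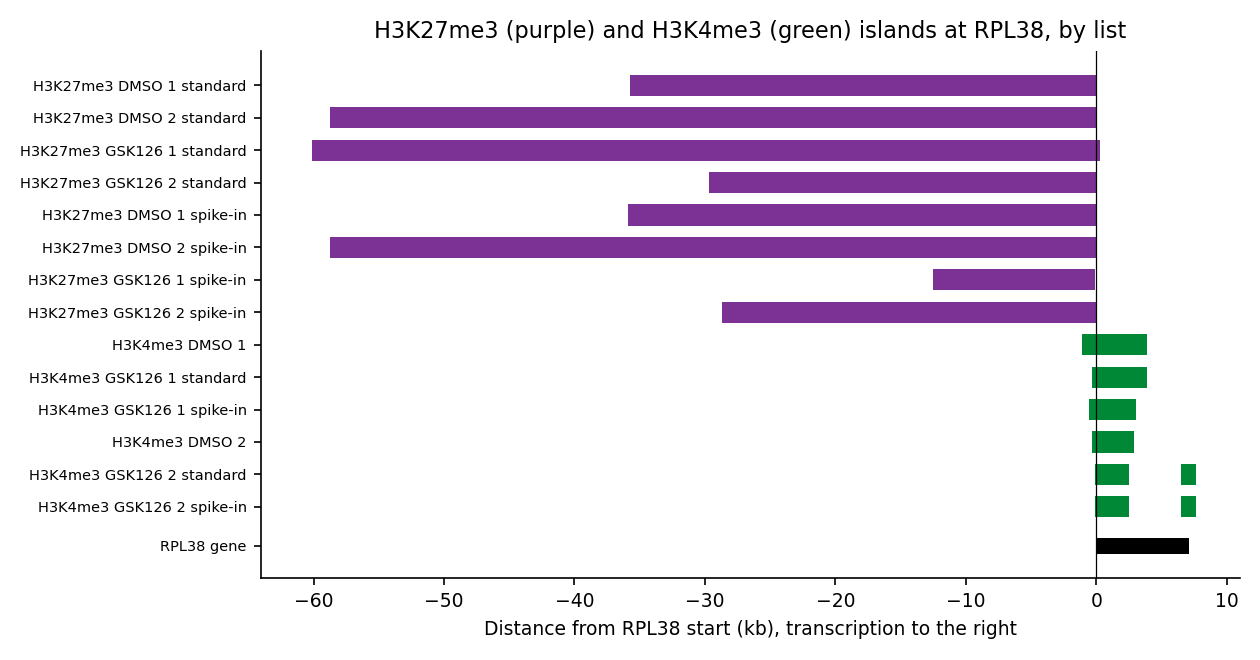
Islands at RPL38 by list, with the distance from the annotated start in kb (horizontal axis, transcription to the right). H3K27me3 islands (purple, 8 lists) all end within 0.279 kb of the start, while their upstream ends range from -12.5 to -60.1 kb, and H3K4me3 islands (green, 6 lists) begin there and cover the start of the gene (black).

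The islands counted for RPS9 lay far from its promoter. Its annotated span on GRCh37, chr19:54704677-54752862, is 48.2 kb long and runs through the leukocyte receptor genes LILRB3 and LILRA6 to LILRB5. All H3K27me3 islands in it began at least 14.1 kb downstream of the start, in 3 blocks. The block over LILRB3 and LILRA6 between 23.9 and 40.3 kb from the start was 16.4 kb wide in both DMSO spike-in lists, and with GSK126 it was reduced to 5.0 and 7.6 kb in the spike-in lists. Coverage of the RPS9 span was 47.1% and 53.9% with DMSO and 22.8% and 29.5% with GSK126 in the spike-in lists, and 47.9% and 46.8% with DMSO and 46.4% and 50.3% with GSK126 in the standard lists. Coverage was thus lower with GSK126 in both replicates after spike-in normalization, and in replicate 1 alone after standard normalization. All H3K27me3 islands of the spike-in lists together covered 275 and 300 Mb with DMSO and 127 and 133 Mb with GSK126. The lower coverage in these lists was therefore not particular to RPS9. In the H3K4me3 lists the start island of RPS9 ended at most 9.32 kb downstream of the start, before the nearest H3K27me3 block.

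RPL8 had an H3K27me3 island only in the standard list of GSK126 replicate 2. It was 3.4 kb wide, from -1.23 to 2.17 kb relative to the start, and lay wholly inside the H3K4me3 island of 8.4 kb of the same replicate. Its score was 42.0, compared to a lowest score of 38.2 in that list. In the other 7 lists the nearest H3K27me3 island to RPL8 was 26.6 to 52.6 kb away.

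H3K27me3 within 10 kb of the starts was less frequent than over all genes. In the DMSO spike-in lists 15 and 14 of 73 starts (20.5% and 19.2%) were within 10 kb of an H3K27me3 island, compared to 31.4% and 31.8% of all genes, and with GSK126 4 and 4 (5.48%), compared to 17.8% and 16.6%. The median distance to the nearest island was 47.6 and 37.2 kb with DMSO and 128 and 118 kb with GSK126, compared to 41.1 and 40.03 kb and 109 and 121 kb for all genes. The median distance was therefore close to that of all genes, and the family differed from them at short range. At 1, 2 and 4 kb downstream of the start no gene of the family was under H3K27me3 in 7 of the 8 lists, the exception being RPL8 in the list named above, while 12.9% to 16.8% of all genes were with DMSO in the spike-in list of replicate 1.

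RPS19 and RPS3 were the genes with H3K27me3 nearest to their starts after RPL38 in the DMSO spike-in lists. At RPS19 the nearest island was 2.73 and 3.73 kb away with DMSO, 4.13 and 3.93 kb away with GSK126 in the spike-in lists, and 3.13 and 4.53 kb away with GSK126 in the standard lists. At RPS3, a small subunit protein that also takes part in DNA repair and was chosen after its values were seen, it was 2.96 and 2.16 kb away with DMSO, and 28.8 and 29.4 kb away under GSK126, in the spike-in lists. In the standard lists it was 29.0 and 2.76 kb away with DMSO and 27.04 and 29.4 kb away under GSK126, so the near island was also missing in 1 of these 2 DMSO lists. A limit of 5 kb upstream instead of 2 kb gave 5 of 73 genes with DMSO in the spike-in lists, compared to 35.0% of all genes, RPS3 and RPS19 among those added, and under GSK126 RPS19 alone, giving 3 of 73, compared to 20.7%. For RPL3 and RPL11 the distance was also larger under GSK126 in the spike-in lists. The nearest island to RPL3 was 6.01 and 6.61 kb away with DMSO and 28.2 and 28.4 kb with GSK126, and the nearest to RPL11 was 10.0 and 8.83 kb away with DMSO and 863 and 394 kb with GSK126. In the standard lists the GSK126 values were 28.2 and 28.2 kb at RPL3 and 8.63 and 51.6 kb at RPL11, so at RPL11 the island of replicate 1 was then nearer than with DMSO, where it was 10.0 kb away.

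Ribosomal protein genes outside the naming rule mostly had an H3K4me3 start island as well, though not always within the width range of the family. FAU, which encodes a small subunit protein as a fusion, had H3K4me3 start islands of 17 and 3.0 kb with DMSO, and RACK1, a scaffold on the small subunit, 11 and 4.4 kb. On the X chromosome RPS4X had 6.2 and 1.2 kb, RPL36A 3.8 and 2.2 kb and RPL39 7.6 and 6.2 kb with DMSO. FAU in replicate 1 was above the widest island of the family, and RPS4X in replicate 2 below the narrowest. In the standard GSK126 lists FAU had 16.2 and 3.0 kb and RACK1 10.6 and 8.2 kb. RPS4X had 6.2 and 2.4 kb, RPL36A 3.4 and 2.2 kb and RPL39 7.4 and 5.0 kb in those lists. RPL10 had none at its annotated 5′ end, but an island of 6.0 and 3.6 kb over all 7 of its annotated coding transcript starts. None of these 6 genes had H3K27me3 in any list.

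Paralogs of the family, several of them used in few tissues, were split. RPL7L1, RPL22L1, RPL26L1, RPL36AL and RPS27L had an H3K4me3 start island in all 6 lists, between 1.8 and 6.8 kb wide, and no H3K27me3. RPL10L and RPL39L had no H3K4me3 start island in any list. RPL3L, a form of RPL3 used in heart and skeletal muscle, carried H3K27me3 over 53.7% and 70.4% of its span in the DMSO spike-in lists and had none in those of GSK126, and over 49.9% and 52.5% with DMSO and 23% and 12.8% with GSK126 in the standard lists. It lies next to RPS2, and the H3K4me3 island of 10.4 kb found at its start in 2 lists is that of RPS2. RPL39L had H3K27me3 over 6.78% and 9.68% of its span in the DMSO spike-in lists and none in the other lists. H3K27me3 was thus found at 2 of 8 paralogs, and at both it was absent with GSK126 in the spike-in lists. Over all autosomal protein-coding genes the share in at least 1 spike-in list was 32.5% with DMSO and 19.4% with GSK126. With 8 genes, nothing particular to the paralogs is concluded.

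The proteins of the mitochondrial ribosome are encoded by other nuclear genes without TOP mRNAs as a class. Of 78 such genes 76 had an H3K4me3 start island in each of the 6 lists, with medians of 4.6 and 2.4 kb with DMSO, close to those of all genes and below those of the cytosolic family. Their median log2 width ratio had a mean of -0.09 ± 0.09 (SD, n = 2) in the standard lists. With DMSO in the spike-in lists 5 of 78 (6.41%) had H3K27me3 in each replicate, and with GSK126 2 of 78 (2.56%). Translation genes with TOP mRNAs outside the ribosome, such as EEF2, PABPC1 and NPM1, had wide islands like the cytosolic family, with medians of 6.7 and 3.8 kb over the 14 and 13 of 15 genes with an island with DMSO. At most 1 of 15 had H3K27me3 in any list, compared to 17.3% to 30.5% of all genes. Whether the width of the H3K4me3 islands goes with transcription was not tested, since expression was not measured in these files.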

How the data were processed

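H3K27me3 and H3K4me3 ChIP-seq libraries of PC9 cells were mapped to hg19 by the authors with BWA (SAMtools 0.1.18 is named in the submitters' notes), and uniquely mapped tags without duplicates were kept. Islands were called per library with SICER 1.1 (window 200 bp, gap 600 bp for H3K27me3 and 200 bp for H3K4me3, E-value 1), after tags were removed by the authors to equal numbers or by the spike-in. The deposited score of an island is the sum over windows of the negative natural log of a Poisson probability, and it grows with depth. Labels give no replicate numbers. Libraries were numbered in accession order and paired within the replicates in which the authors equalised tags, and the study's text calls its replicates biological, while the labels name no separate cultures. Here, islands were joined to GENCODE genes on GRCh37, and widths, scores and coverage were compared within a replicate as log2 ratios or differences with the mean and SD of 2 replicates, in Python 3.11.15 with NumPy 2.4.6, after tests on simulated data. No p-values were computed. Genes, lists and the rule for named genes (the widest, narrowest, most changed, unmarked and H3K27me3-bearing genes and a set named by role) were chosen with earlier results of these data known. Some genes of the family and of the comparison lists enter the counts and medians but are not reported here by name.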

Additional observations from a re-analysis of the deposited data

How the results depend on the processing

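Of 68 alternatives over 10 results, 64 stayed within the spread or within 1.5 times the count, and 4 moved. These alternatives left out a replicate, ignored the pairing, used other reaches, thresholds or island filters, or used the RefSeq start, which was chosen after seeing the data. The count of genes narrower with GSK126 ranged from 36 to 49 with 1 replicate left out in the standard lists (28 in both) and from 33 to 40 in the spike-in lists (23 in both), by construction, since a single replicate then decides. For the ratios and the coverage difference, the value of a single replicate always lies within the SD of 2 replicates. Leaving out 1 replicate therefore could not move these results, and nothing is concluded from it. With 5 kb upstream, 5 genes had H3K27me3 with DMSO in the spike-in lists and 5 with GSK126 in the standard lists, compared to 35.0% and 27.2% of all genes. Without the replicate block, that is with the pairing ignored, the values of each gene were averaged over the 2 replicates before the ratio. The median log2 width ratio over genes was then -0.09 in the standard and -0.05 in the spike-in lists, and that of the score 0.21. Islands were narrower in the shallower H3K4me3 replicate, and the part of depth in this was not tested.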
